A study of Mus musculus with 6 samples.

Results

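The genes described here are 42 cyclins, cyclin-dependent kinases, mitotic kinases, spindle checkpoint proteins and spindle motors, which together drive and order cell division. They were chosen by name, and each of the 42 symbols matched exactly 1 of the 55364 genes in the expression table. RNA-seq was performed on mouse morulae after *Yy1* knockdown (KD), with 3 control KD and 3 *Yy1* KD libraries of 10 pooled morulae each. YY1 is a zinc finger transcription factor, and the comparison asks which transcripts change at the morula stage when it is depleted. All embryos were made by in vitro fertilization with BDF1 eggs and BDF1 sperm and were grown in KSOM medium. They received siRNA in the cytoplasm as zygotes, either a control siRNA or 1 siRNA against *Yy1*, and were collected 64 h after insemination. The *Yy1* KD therefore rests on a single siRNA sequence, and transcripts loaded into the egg before injection could still be present. No source used here says whether the 3 pools of a group came from separate collections, so the p-values measure only the spread between these pools, which may be technical.

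Cyclins switch on cyclin-dependent kinases (CDKs), and the order in which cyclins appear and are destroyed sets the order of the cell cycle. D-type and E-type cyclins act in G1 and at the start of DNA replication, cyclin A in S phase and G2, and B-type cyclins with CDK1 at mitosis. Mitosis ends when the anaphase-promoting complex (APC/C), an E3 ubiquitin ligase, marks cyclin B and securin for destruction, a step that the spindle checkpoint holds back until every chromosome is attached. Cleavage divisions of the early embryo run with little growth between them, and maternal stores of these transcripts are replaced by embryonic transcription after genome activation.

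*Yy1* itself fell from 95.3 ± 5.26 TPM (mean ± SD, n = 3), a transcript abundance scaled to gene length and library total, to 8.65 ± 0.298 TPM, which is 9.07% of the control level (log2 fold change −3.32, SE 0.09, limma adjusted p = 6.71e-05). The libraries held between 11793513 and 24417782 read pairs as recovered from the TPM values. The summed level of 10 morula marker genes was 2141 to 2442 TPM in control KD and 1856 to 2058 TPM in *Yy1* KD. Of the 10, 1 was called lower, the trophectoderm factor *Tfap2c* (183 ± 7.24 to 125.5 ± 9.14 TPM, limma adjusted p = 0.0174). That is 10% called, beside 6.11% of all genes tested. The log2 fold change was below 0 for 9 of the 10, with a median of −0.18 against −0.02 over all genes. At an unadjusted limma p under 0.05, 3 were lower and 0 higher, and limma-voom called 2 lower and 0 higher. Of 8 oocyte markers 7 were tested and 0 were called (limma, 0 also at an unadjusted p under 0.05 and 0 by limma-voom), with sums of 48.4 to 66.0 TPM in control KD and 50.9 to 68.3 TPM in *Yy1* KD. Markers of cumulus and granulosa cells summed to 8.77 to 11.1 and 9.31 to 10.6 TPM. Most of that sum was *Amhr2*, at 8.91 ± 0.979 and 8.09 ± 0.819 TPM, while 5 of the 9 (*Fshr*, *Cyp19a1*, *Has2*, *Ptx3* and *Tnfaip6*) were listed at 0 in all 6 libraries. These 6 genes are named after their values were seen. Sperm markers summed to 0.322 to 0.599 and 0 to 2.26 TPM.

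Calls were made for 6 of the 42 genes and went in both directions. With 3 pools in a group, a gene that was not called may still have changed. *Ccne2* (cyclin E2), *Cdc20* (an APC/C activator), *Ttk* (the checkpoint kinase MPS1) and *Ccna2* (cyclin A2) were upregulated, by 0.40 to 0.96 on the log2(TPM + 1) scale. *Ccnd1* (cyclin D1) and *Plk4* (the kinase that starts centriole duplication) were downregulated, by −1.06 and −0.61. Of the 42 genes, 41 passed the filter of at least 1 TPM in at least 3 libraries, 4 were called higher, 2 were called lower and 35 were not called at an adjusted p under 0.05 (limma on log2(TPM + 1), Benjamini-Hochberg over 17353 genes). Among all genes tested 1.92% were called higher and 4.20% lower, against 9.76% and 4.88% of these 41 genes. The members were chosen with earlier results of these data known, so their shares are a description only. The median log2 fold change was −0.09 over the 41 genes and −0.02 over all genes, and 17 of the 41 were above 0 and 24 below. The values of the groups did not overlap for 21 of the 41 genes, 7 of them higher and 14 lower in *Yy1* KD, while 30.1% of all genes tested showed such a separation. Of all calls 68.6% were lower, and with quantile normalization this was 58.5%, with 4 members higher and 1 lower. These genes are more abundant than most and abundant genes were called more often: at a mean of 20 TPM or more, 10.4% of 5720 genes were called and 39.0% did not overlap, against 12.5% and 46.9% of the 32 members at that level. The 4 called members there were all higher, while 3.55% of the 5720 genes were called higher and 6.85% lower. Below 20 TPM, 4.01% of 11633 genes were called and 25.7% did not overlap, against 22.2% and 66.7% of 9 members, 1 of which (*Cdkn1b*) passed the filter only through the control libraries. A design of 3 pools against 3 allows no exact permutation p under 0.1, so single-gene statements rest on the limma fit across all genes. Without control KD replicate 3 limma called 0 members (7 higher and 8 lower at an unadjusted p under 0.05). That fit called 0.439% of all genes tested, against 6.11% with all 6 libraries, so fewer calls were not particular to the members. *Ccne2* was the only one of the 6 that stayed called without any one of the other 5 libraries. With 1 library left out the adjusted p was 0.0419 to 0.104 for *Ccnd1*, 0.0688 to 0.121 for *Ccna2*, 0.0531 to 0.0858 for *Cdc20*, 0.0666 to 0.107 for *Plk4* and 0.0943 to 0.147 for *Ttk*. On read pairs recovered from the TPM values, limma-voom called 5 members higher and 7 lower and 12.3% of all genes, adding *Kif18a* to the higher and *Ccnd3*, *Cdk1*, *Fzr1* and *Cdc25a* to the lower genes. The 7 also hold *Cdkn1b*, which is not counted as an added gene because of how it passed the filter. Because whole embryos were pooled, fewer cells in a cell cycle phase and less RNA per cell cannot be told apart.

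**Figure D1:**
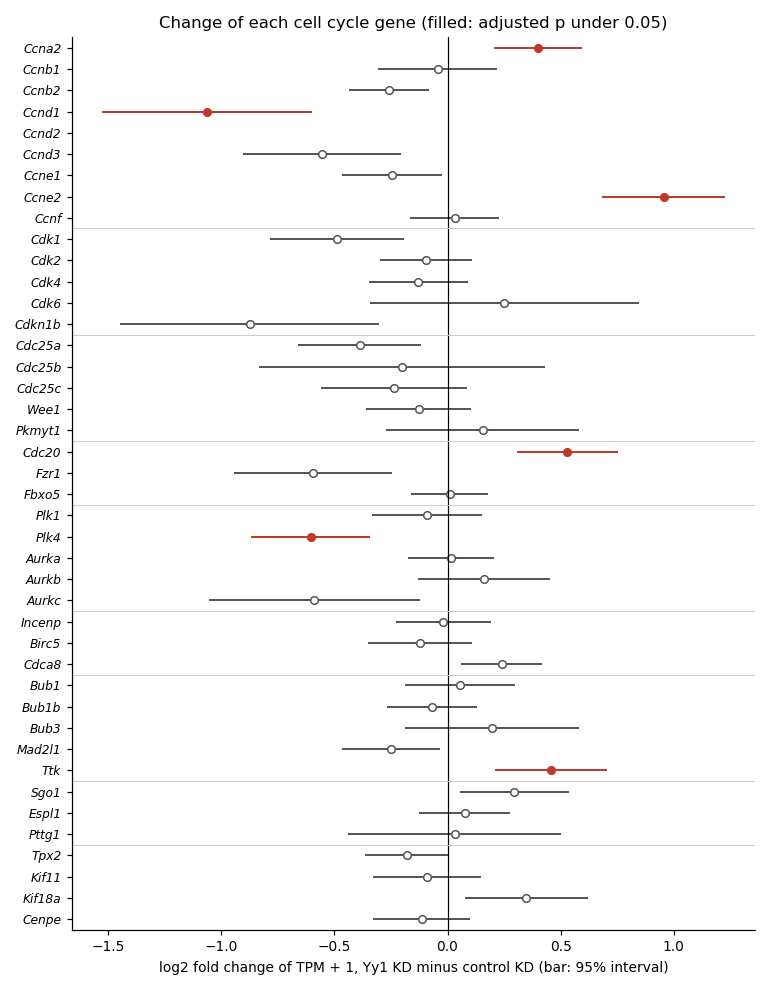
Log2 fold change of each tested gene between *Yy1* KD and control KD on the log2(TPM + 1) scale, with bars for 95% limma intervals and colour for the call. *Ccne2* (0.96) and *Ccnd1* (−1.06) sit at the ends, and most of the 35 genes that were not called lie near 0.

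The D-type cyclins, which link outside signals to CDK4 and CDK6 in G1, were the cyclins with the lowest levels apart from *Ccnd3*. *Ccnd1* (chr7:144929931-144939925, minus strand, mm10) was at 8.22, 9.75 and 9.15 TPM in control KD replicates 1 to 3 and at 4.84, 3.78 and 2.94 TPM in *Yy1* KD. It fell in every *Yy1* KD library below every control KD library, from 9.04 ± 0.771 to 3.85 ± 0.954 TPM (log2 fold change −1.06, SE 0.19, 95% interval −1.52 to −0.61, adjusted p = 0.0304). *Ccnd3*, the main D-type cyclin of these morulae, was at 53.6, 51.9 and 58.3 TPM in control KD and at 30.8, 35.8 and 45.3 TPM in *Yy1* KD. Those groups did not overlap either, but the *Yy1* KD libraries were spread widely and the gene was not called (−0.55, SE 0.15, adjusted p = 0.0753). It was called without *Yy1* KD replicate 3, the library with the highest *Ccnd3* level of its group (adjusted p = 0.0442). *Ccnd2* was at or under 0.794 TPM in all 6 libraries and was not tested. Their kinase partners did not separate: *Cdk4* was at 62.4 ± 1.63 and 57.1 ± 5.20 TPM and *Cdk6*, close to the filter, at 1.40 ± 0.288 and 1.88 ± 0.599 TPM, with neither called. *Cdkn1b*, which encodes the CDK inhibitor p27, was at 1.91, 1.85 and 2.21 TPM in control KD and at 0.880, 0.360 and 0.687 TPM in *Yy1* KD. Its groups did not overlap, but it passed the filter only through the control libraries and was not called (−0.88, SE 0.24, adjusted p = 0.0826), with 45 to 87 recovered read pairs per control KD library and 9 to 31 per *Yy1* KD library. On those read pairs the log2 fold change was −1.62, and no call is drawn from it because of that filter.

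The E-type cyclins, which activate CDK2 as cells enter S phase, differed from each other in both level and change. *Ccne2* (chr4:11191351-11204779, plus strand) was at 27.2, 22.3 and 25.1 TPM in control KD and at 44.6, 49.6 and 53.3 TPM in *Yy1* KD. Every *Yy1* KD library was well above every control KD library, and the mean rose from 24.9 ± 2.48 to 49.2 ± 4.35 TPM (log2 fold change 0.96, SE 0.11, 95% interval 0.69 to 1.22, adjusted p = 0.0122). *Ccne1*, the most abundant of the 42 transcripts in control KD, was at 362, 322 and 380.3 TPM there and at 275, 306 and 315 TPM in *Yy1* KD. It lay lower in *Yy1* KD without overlap and was not called (−0.25, 95% interval −0.46 to −0.03, adjusted p = 0.163). The ratio of *Ccne1* to *Ccne2* TPM was 13.3, 14.4 and 15.1 in the control KD libraries and 6.16, 6.16 and 5.92 in the *Yy1* KD libraries. *Cdk2*, their kinase, was at 30.8 ± 0.870 and 28.8 ± 1.10 TPM (−0.10, 95% interval −0.30 to 0.10). *Cdc25a*, the phosphatase that removes inhibitory phosphate from CDK2 and CDK1, was at 57.0 ± 5.13 and 43.4 ± 4.54 TPM without overlap and was not called (−0.39, adjusted p = 0.0953).

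Cyclin A2 rose while the B-type cyclins and CDK1 did not. *Ccna2* (chr3:36564865-36572150, minus strand) was at 218, 203 and 187 TPM in control KD and at 255, 277 and 271 TPM in *Yy1* KD. Its 3 *Yy1* KD values were all above the highest control value, and the mean went from 203 ± 15.3 to 267 ± 11.4 TPM (log2 fold change 0.40, SE 0.08, 95% interval 0.21 to 0.59, adjusted p = 0.0387). *Ccnb1*, the chief mitotic cyclin, was at 236 ± 32.2 and 228 ± 9.15 TPM with overlapping groups (−0.04, 95% interval −0.30 to 0.22, adjusted p = 0.851). Its relative *Ccnb2* was at 73.4, 75.3 and 75.5 TPM in control KD and at 62.8, 59.1 and 65.1 TPM in *Yy1* KD, lower without overlap but not called (−0.26, SE 0.07, adjusted p = 0.0905). *Cdk1*, the kinase bound by cyclins A and B, was at 143, 147 and 112 TPM in control KD and at 102, 86.9 and 94.7 TPM in *Yy1* KD. This was the largest difference in TPM among the CDKs, the groups did not overlap, and the call was missed (−0.49, SE 0.12, adjusted p = 0.0685). *Ccnf*, a cyclin that serves a ubiquitin ligase in place of a CDK, was at 40.5 ± 1.28 and 41.5 ± 1.89 TPM. The genes that set inhibitory phosphate on CDK1 were not called: the kinases *Wee1* (31.6 ± 2.47 and 28.8 ± 1.09 TPM) and *Pkmyt1* (4.73 ± 0.664 and 5.39 ± 0.668 TPM) had overlapping groups. Of the phosphatases that take it off, *Cdc25b* overlapped (10.2 ± 2.61 and 8.80 ± 2.54 TPM) and *Cdc25c* was lower without overlap (8.16 ± 0.440 and 6.77 ± 0.387 TPM, −0.24, adjusted p = 0.341).

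**Figure D2:**
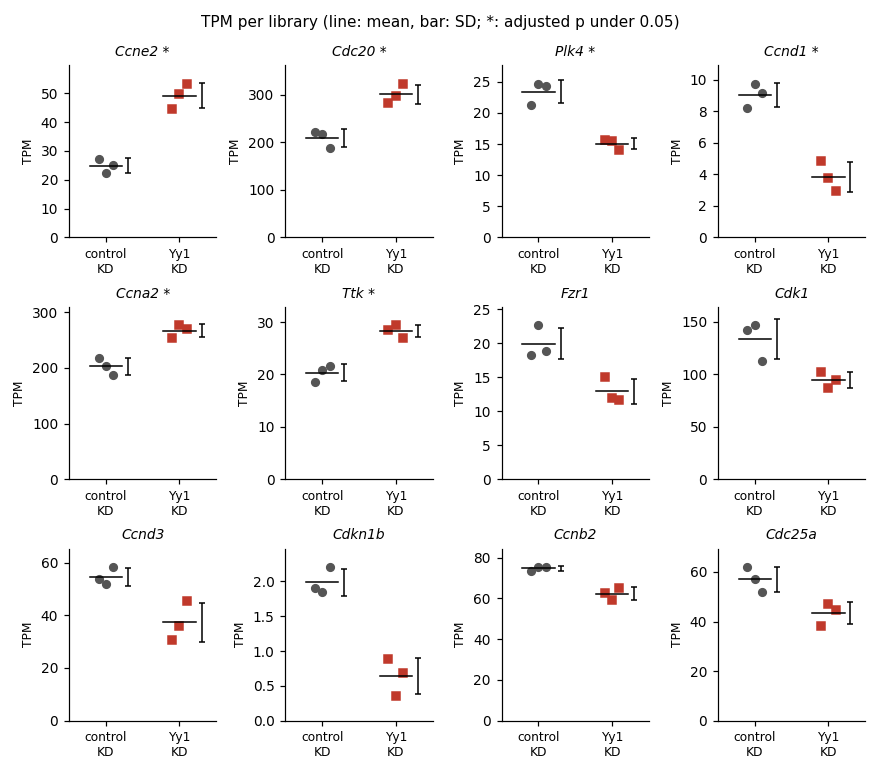
TPM in each library for 12 genes, with 1 panel a gene, axes from 0, circles for control KD and squares for *Yy1* KD in the order of replicates 1 to 3; lines are means, bars SD and asterisks mark an adjusted p under 0.05. All 12 were picked as the 6 called genes and the 6 with the lowest adjusted p among those not called. In none do the groups overlap, which a choice by low adjusted p favours, and 30.1% of all genes tested did not overlap. *Cdkn1b* passed the filter only through the control libraries.

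Of the APC/C activators *Cdc20* rose and *Fzr1* was not called. *Cdc20* (chr4:118432901-118437352, minus strand), which directs the APC/C to securin and cyclin B at anaphase and is the target of the spindle checkpoint, was at 222, 217 and 187 TPM in control KD and at 284, 297 and 324 TPM in *Yy1* KD. The lowest *Yy1* KD value exceeded the highest control value, and the mean rose from 209 ± 18.7 to 302 ± 20.2 TPM (log2 fold change 0.53, SE 0.09, 95% interval 0.31 to 0.75, adjusted p = 0.0281). By mean, *Cdc20* was the fifth most abundant of the 42 transcripts in control KD and the most abundant in *Yy1* KD. Its *Yy1* KD values overlapped those of *Ccne1* (mean 299 TPM) and *Aurka* (295 TPM), so these genes are not said to differ there. In control KD its values overlapped those of *Ccnb1* and *Ccna2*. *Fzr1*, which encodes CDH1, the activator that takes over at mitotic exit and in G1, was at 18.3, 22.7 and 18.9 TPM in control KD and at 15.1, 11.95 and 11.7 TPM in *Yy1* KD. It was lower in each *Yy1* KD library and was not called (−0.60, SE 0.15, adjusted p = 0.0625). The *Cdc20* to *Fzr1* ratio was 12.1, 9.60 and 9.89 in control KD and 18.8, 24.9 and 27.7 in *Yy1* KD, so the ratios did not overlap. *Fbxo5*, which encodes the APC/C inhibitor EMI1, was at 105 ± 5.23 and 105 ± 1.82 TPM, the closest pair of means among the genes above 100 TPM (0.01, 95% interval −0.16 to 0.18). The APC/C substrate *Pttg1*, securin, was at 26.7 ± 6.66 and 26.9 ± 3.38 TPM, and *Espl1*, the separase that securin holds inactive, at 74.6 ± 5.75 and 78.6 ± 2.53 TPM. *Sgo1*, which shields centromeric cohesin from early loss, was at 34.8, 32.3 and 36.3 TPM in control KD and at 46.2, 43.1 and 38.6 TPM in *Yy1* KD, higher without overlap and not called (0.30, SE 0.10, adjusted p = 0.134).

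Of the 5 Polo and Aurora kinases among the members, 1 was called, while 6.11% of all genes tested were called. A list of 5 genes is too short to compare with that share. *Plk4* (chr3:40800019-40816883, plus strand) was at 21.3, 24.7 and 24.3 TPM in control KD and at 15.6, 15.5 and 14.0 TPM in *Yy1* KD. The groups lay apart with little spread within *Yy1* KD, and the mean fell from 23.4 ± 1.84 to 15.0 ± 0.865 TPM (log2 fold change −0.61, SE 0.11, 95% interval −0.86 to −0.35, adjusted p = 0.0302). *Plk1*, which acts in mitotic entry, spindle assembly and cytokinesis, was at 122 ± 8.31 and 115 ± 12.3 TPM (−0.09, 95% interval −0.33 to 0.15). *Aurka*, the kinase of spindle poles, was the second most abundant of the 42 transcripts in control KD, at 292 ± 16.2 TPM and 295 ± 17.9 TPM in *Yy1* KD (0.02, 95% interval −0.17 to 0.20). For *Plk1* and *Aurka* the intervals leave room for changes of at most 0.33 on the log2 scale in either direction. *Aurkb*, the kinase of the chromosomal passenger complex, was at 45.4 ± 4.73 and 51.0 ± 5.89 TPM. *Aurkc*, a germ cell and early embryo relative of *Aurkb*, was at 39.9, 60.1 and 35.3 TPM in control KD and at 27.9, 31.1 and 27.8 TPM in *Yy1* KD. The *Aurkc* groups did not overlap, control KD replicate 2 stood high, and the gene was not called (−0.59, SE 0.19, adjusted p = 0.127); 54.8% of its exon 50-mers also occur in other genes, so its reads may be shared with them. The passenger subunits *Incenp* (127 ± 4.92 and 125 ± 11.1 TPM) and *Birc5*, survivin (113 ± 8.37 and 104 ± 8.89 TPM), overlapped between groups. *Cdca8*, borealin, was at 75.9, 77.5 and 79.8 TPM in control KD and at 95.4, 94.4 and 86.5 TPM in *Yy1* KD, without overlap and without a call (0.24, SE 0.07, adjusted p = 0.109).

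Among the spindle checkpoint genes, *Ttk* was called higher and the BUB genes were not called. *Ttk* (chr9:83834689-83872389, plus strand), whose kinase starts checkpoint signalling at unattached kinetochores, was at 18.5, 20.9 and 21.7 TPM in control KD and at 28.5, 29.4 and 27.0 TPM in *Yy1* KD. The values did not overlap, with a mean of 20.4 ± 1.68 against 28.3 ± 1.18 TPM, and the call lay at the threshold (log2 fold change 0.46, SE 0.10, 95% interval 0.22 to 0.70, adjusted p = 0.0497). *Mad2l1*, whose protein is handed to CDC20 to hold the APC/C back, was at 25.8 ± 1.08 and 21.5 ± 0.503 TPM, lower without overlap and not called (−0.25, SE 0.09, adjusted p = 0.153). The kinase gene *Bub1* (49.4 ± 4.31 and 51.3 ± 4.06 TPM) and *Bub1b*, BUBR1 (97.3 ± 3.29 and 93.0 ± 7.25 TPM), had overlapping values. *Bub3*, the adaptor that docks both, was at 18.6 ± 1.82 and 21.7 ± 4.45 TPM, with *Yy1* KD replicate 1 at 26.8 TPM above the rest. Its log2 fold change was 0.20 (95% interval −0.19 to 0.58), an interval that holds the estimate of *Ttk*.

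No spindle motor or assembly gene was called by limma, with 1 of 4, *Kif18a*, at an unadjusted p under 0.05 and called by limma-voom (adjusted p = 0.0355). Of all genes tested limma called 6.11% and limma-voom 12.3%, and 4 genes are too few to compare with these shares. *Tpx2*, which activates Aurora A on spindle microtubules and was the third most abundant of these transcripts in control KD, was at 279, 259.6 and 277 TPM there and at 258, 225 and 238 TPM in *Yy1* KD. Its groups lay next to each other without overlap (−0.18, SE 0.08, adjusted p = 0.217). *Kif18a*, a kinesin that limits chromosome movement at metaphase, was at 12.1, 10.6 and 11.7 TPM in control KD and at 14.3, 15.1 and 15.2 TPM in *Yy1* KD, higher without overlap (0.35, SE 0.11, adjusted p = 0.122). The pole-separating kinesin *Kif11* (101 ± 10.4 and 94.7 ± 6.41 TPM) and the kinetochore kinesin *Cenpe* (174 ± 8.35 and 161 ± 14.8 TPM) overlapped between groups.

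By level, this was an abundant group of transcripts with a wide range. In control KD 13 of the 42 genes were at 100 TPM or more and 6 were under 10 TPM, and the median was 47.4 TPM against 8.75 TPM for all genes tested. *Ccne1* (355 ± 29.8 TPM) led, followed by *Aurka*, *Tpx2*, *Ccnb1*, *Cdc20* and *Ccna2*, and its lowest library was above every library of *Aurka*. From *Aurka* down to *Ccna2* each gene overlapped with the next in the order, whereas *Ccna2* and *Cenpe* were separated. At the low end *Pkmyt1*, *Cdkn1b*, *Cdk6* and *Ccnd2* followed each other without overlap, at means of 4.73, 1.99, 1.40 and 0.507 TPM. Over the whole order 29 of 41 neighbouring pairs overlapped. *Ccne1* was 699 times as abundant as *Ccnd2* on the TPM scale, which is corrected for gene length.

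**Figure D3:**
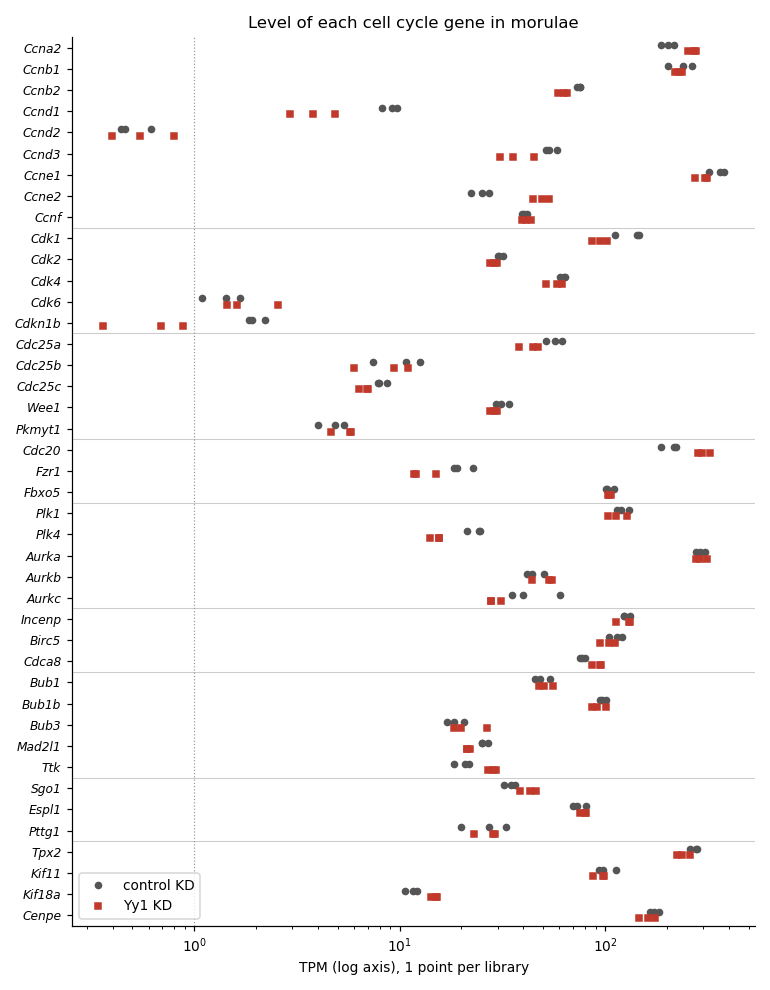
TPM of the 42 genes in each library on a log axis, with genes grouped by role, circles for control KD and squares for *Yy1* KD. The highest control KD mean is that of *Ccne1* (355 TPM) and the lowest that of *Ccnd2* (0.507 TPM). For most genes the symbols of both groups lie close together.

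Ratios of related genes within a library do not depend on that library's scaling. Of 13 such ratios, 3 did not overlap between groups: *Ccne1* to *Ccne2* (14.3 ± 0.934 and 6.08 ± 0.141), *Cdc20* to *Fzr1* (10.5 ± 1.36 and 23.8 ± 4.53) and *Aurkc* to *Aurkb* (1.001 and 0.576). The other 10 overlapped, among them *Ccnb1* to *Ccnb2* (3.16 and 3.66), *Wee1* to *Pkmyt1* (6.80 and 5.41), *Bub1* to *Bub1b* (0.508 and 0.551) and *Espl1* to *Pttg1* (2.96 and 2.97). For single genes, 30.1% of all tested did not overlap between groups. No such share was computed for ratios of other genes, so the count of 3 in 13 is a description only.

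**Figure D4:**
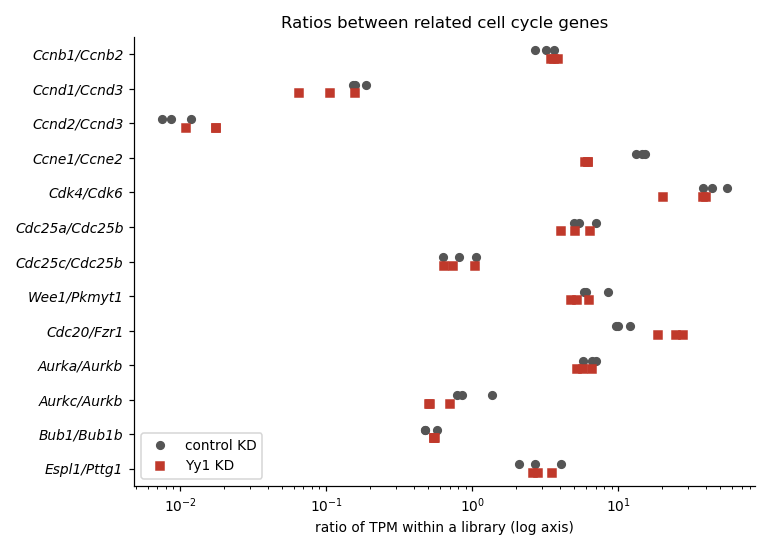
Ratio of TPM values of related genes in each library, on a log axis, with circles for control KD and squares for *Yy1* KD. The groups stand apart for *Ccne1* to *Ccne2*, *Cdc20* to *Fzr1* and *Aurkc* to *Aurkb*, and overlap for the other 10 ratios.

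Strand was ignored in counting, so an exon shared with an antisense gene gives reads that cannot be assigned to either. *Ccne2* shares 609 nt of exon (17.4%) with antisense *Ints8*, which moved the other way (28.9 ± 1.36 to 16.4 ± 0.515 TPM, log2 fold change −0.78, adjusted p = 0.0126). *Ccna2* shares 510 nt (12.5%) with antisense *Exosc9*, which rose as *Ccna2* did (60.3 ± 1.42 to 79.9 ± 3.39 TPM, 0.40, adjusted p = 0.0304), and the part of *Exosc9* reads in the *Ccna2* value was not tested. *Ccnd1* shares 1100 nt (23.4%) with antisense *LTO1*, at 8.15 and 8.20 TPM in the groups (0.01, adjusted p = 0.984). *Cdc20* shares 53 nt with *Elovl1*, at 5.43 and 5.66 TPM, and 10.6% of its 50-mers with other loci, mainly the pseudogene *Gm7856*. *Ttk* and *Plk4* overlap no other annotated exon. These 4 partner genes were chosen for their position, after the values of the members had been seen.

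In 4 neighbouring lists of the cell cycle machinery the share of genes called was close to the 6.11% of all genes tested, at 6.25% for the APC/C, 6.45% for the kinetochore, 8.70% for spindle and cytokinesis and 5.26% for RB and E2F. Of 16 APC/C subunits and E2 enzymes tested, 1 fell, the cullin-like subunit *Anapc2* (59.9 ± 1.94 to 43.1 ± 2.202 TPM, −0.47, adjusted p = 0.0262), and 0 rose (limma, 2 higher at an unadjusted p under 0.05 and 2 higher by limma-voom). Of 31 kinetochore genes 2 fell, *Spc24* of the NDC80 complex (21.2 ± 6.16 to 8.53 ± 1.62 TPM, −1.20, adjusted p = 0.0330) and *Zwilch*, which helps bring dynein to the kinetochore (27.5 ± 3.60 to 16.7 ± 2.06 TPM, −0.69, adjusted p = 0.0385). In that list 0 rose (limma, 6 higher at an unadjusted p under 0.05 and 1 by limma-voom), and its median log2 fold change was 0.10. The spindle and cytokinesis list had 23 genes tested, of which 2 rose and 0 fell (limma, 2 lower at an unadjusted p under 0.05 and 0 by limma-voom). Its called genes were the spindle protein *Ckap2* (56.9 ± 5.87 to 98.8 ± 9.98 TPM, 0.79, adjusted p = 0.0160) and the kinesin *Kif18b* (80.5 ± 5.84 to 104.9 ± 0.535 TPM, 0.38, adjusted p = 0.0403). Of 19 RB and E2F genes, 1 fell, the repressor *E2f6* (19.1 ± 0.665 to 12.7 ± 1.57 TPM, −0.56, adjusted p = 0.0468), and 0 rose (limma, 2 higher at an unadjusted p under 0.05 and 2 by limma-voom).

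The list of other CDK inhibitors and regulators included *Cdkn1c*, *Plk2* and *Mnat1* as called genes. Of 18 tested, 3 rose and 0 fell (limma, 2 lower at an unadjusted p under 0.05 and 2 by limma-voom). Thus 16.7% were called higher beside 1.92% of all genes, with 4.20% of all genes called lower. This list was chosen with earlier results of these data known, so its share is a description only. *Cdkn1c*, the imprinted CDK inhibitor p57, went from 3.58 ± 1.02 to 18.1 ± 8.41 TPM (1.995, adjusted p = 0.0227), opposite in sign to the uncalled value of *Cdkn1b*. *Plk2*, a Polo kinase known to respond to stress, went from 19.9 ± 10.3 to 67.9 ± 14.0 TPM (1.82, adjusted p = 0.0370). *Mnat1*, an assembly factor of the CDK-activating kinase, went from 18.9 ± 0.769 to 25.3 ± 0.235 TPM (0.40, adjusted p = 0.0499). The medians of these lists ran from −0.10 to 0.10, beside −0.02 over all genes.

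Promoters of the genes were searched on both strands for the YY1 motif GCCATNTT and for a pair of elements known from promoters of G2 and mitosis genes, the CHR element TTTGAA and the CCAAT box. The window was the 300 bases from 250 before to 50 after the RefSeq start (GRCm38.p6), and 32 of the 42 genes had one, leaving out *Ccna2*, *Ccnd1*, *Ccnd2*, *Ccne2*, *Cdc25c*, *Wee1*, *Pkmyt1*, *Aurkb*, *Incenp* and *Tpx2*. The CCAAT box was found in 24 of 32 (75%) against 41.1% of 27025 genes, and the CHR element in 13 of 32 (40.6%) against 20.2%. All 13 promoters with a CHR element also held a CCAAT box, so 40.6% held both, against 8.97% of all genes. The YY1 motif was in 5 of 32 (15.6%), namely *Bub1*, *Cdca8*, *Cdkn1b*, *Fzr1* and *Plk4*, against 6.96% of all genes and 10.4% of the 9767 tested genes with a promoter. Of those 5 genes *Plk4* was called lower, *Fzr1* and *Cdkn1b* were lower and *Cdca8* higher without overlap and without a call, and *Bub1* overlapped. *Cdkn1b* passed the filter only through the control libraries, which favours a lower value in *Yy1* KD. Groups did not overlap for 30.1% of all genes tested and 51.2% of the tested members, and 5 genes are too few to compare with these shares. With the shorter letters CCATNTT the share was 18.8% against 18.2% of all genes, and with GCCAT 34.4% against 44.2%, so the difference in share depended on the letters chosen. A match gives letters in a window and no evidence of binding, and short motifs occur often.

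The printed stretches are those of the called genes with a promoter in the table and of *Fzr1* and *Cdkn1b*. *Fzr1* and *Cdkn1b* have a YY1 motif and were lower without a call. *Cdca8* and *Bub1* also have a YY1 motif, on the other strand at −135 and −223, and are not printed. *Cdca8* was higher without a call and *Bub1* overlapped, so the choice of stretches says nothing of motif and direction. All stretches are from RefSeq GRCm38.p6, written 5′ to 3′ on the strand of the gene, with capitals for any of the 3 motifs on either strand. *Cdc20* (chr4:118437344-118437593, minus strand, the 250 bases before the start) has CCAAT boxes at −53 and −8 around a CHR element at −18. *Ttk* (chr9:83834439-83834688, plus strand, 250 bases before the start, and chr9:83834689-83834718, the first 30 bases after it) has CCAAT boxes at −65 and −28 and a CHR element on the other strand at 8. *Plk4* (chr3:40799701-40799950, plus strand) has the YY1 motif on the other strand at −241 and neither of the other elements. *Fzr1* (chr10:81378371-81378620, minus strand) has it as written at −45 with a CCAAT box on the other strand at −79. *Cdkn1b* (chr6:134920421-134920450, plus strand, bases 21 to 50 after the start) has it as written at 41, overlapping a CCAAT box on the other strand at 46.
Cdc20: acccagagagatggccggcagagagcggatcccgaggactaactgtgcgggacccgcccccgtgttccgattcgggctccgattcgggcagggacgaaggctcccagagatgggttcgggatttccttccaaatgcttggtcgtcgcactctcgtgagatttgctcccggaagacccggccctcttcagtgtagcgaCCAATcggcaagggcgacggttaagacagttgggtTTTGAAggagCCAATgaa
Ttk before the start: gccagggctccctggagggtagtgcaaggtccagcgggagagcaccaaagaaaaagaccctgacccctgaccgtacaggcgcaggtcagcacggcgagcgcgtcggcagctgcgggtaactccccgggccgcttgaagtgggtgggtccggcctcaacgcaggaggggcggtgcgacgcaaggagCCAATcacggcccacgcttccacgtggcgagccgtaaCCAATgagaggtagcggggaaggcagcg
Ttk after the start: gggaaatTTCAAAcgtgtttccggagaggg
Plk4: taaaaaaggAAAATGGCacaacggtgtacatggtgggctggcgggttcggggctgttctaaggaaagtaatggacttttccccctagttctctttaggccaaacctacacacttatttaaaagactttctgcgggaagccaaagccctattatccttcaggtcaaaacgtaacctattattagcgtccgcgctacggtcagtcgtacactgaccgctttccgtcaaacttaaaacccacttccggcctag
Fzr1: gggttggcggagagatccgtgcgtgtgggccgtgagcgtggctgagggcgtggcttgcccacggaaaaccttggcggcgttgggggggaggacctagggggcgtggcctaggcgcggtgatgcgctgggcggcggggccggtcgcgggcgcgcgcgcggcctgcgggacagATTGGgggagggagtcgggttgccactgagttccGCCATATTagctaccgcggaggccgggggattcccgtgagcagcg
Cdkn1b: tcgtcagcctcccttccaccGCCATATTGG

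**Figure D5:**
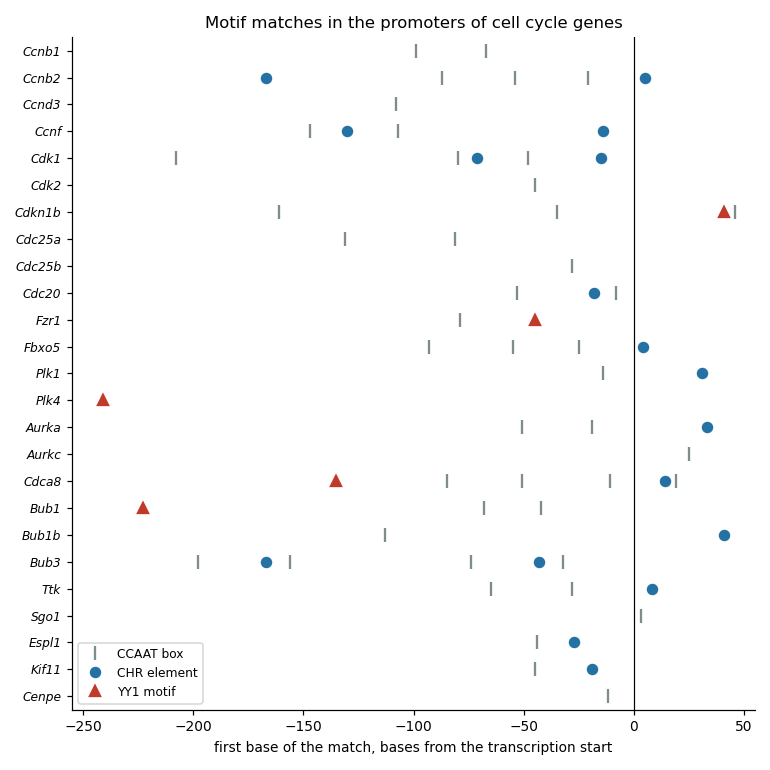
Positions of the CCAAT box, the CHR element and the YY1 motif on either strand, as bases from the transcription start to the first base of each match. Only genes with a match among the 32 with a promoter are shown. The shares are not drawn. Between the 32 genes and all 27025 genes of the promoter table, the CCAAT box (75% and 41.1%) and the CHR element (40.6% and 20.2%) differ most. No test was run.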

How the data were processed

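Total RNA of pooled morulae was made into SMART-Seq stranded libraries and sequenced in pairs. The authors trimmed reads with Trim Galore 0.6.7, aligned them to mm10 with HISAT2 2.2.1, removed ribosomal RNA reads with bedtools and counted pairs per gene with featureCounts 2.0.1, with strand ignored and pairs on several genes divided. The deposited values are TPM of 55364 genes, and the authors tested counts with edgeR, which TPM values do not allow.

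Here limma 3.58.1 (R 4.3.3) was fitted with a variance trend to log2(TPM + 1) of 3 control KD and 3 *Yy1* KD libraries. Genes had at least 1 TPM in at least 3 libraries, p-values were adjusted over all 17353, and an adjusted p under 0.05 was a call. Fold changes on this scale understate those of low genes, and errors are SD over 3 libraries.

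Depth was recovered from TPM and the exon lengths of a neighbouring GENCODE release (98.1% of gene IDs matched). Of values under 20 pairs, 80.7% to 81.5% per library were whole and 99.3% to 99.4% were whole sixths of a pair, as division among genes gives, within 0.01 pair, and limma-voom on these pairs and a fit on genes of at least 200 nt were added after seeing the data. Overlaps and shared 50-mers were read from the same release. Each library was left out in turn, and the pseudocount, the filter, the scaling, the variance model and a replicate block were varied. The procedure was tested on simulated data.

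The members and lists were chosen with earlier results of these data known. All members are described, *Yy1* checks the knockdown, and of the other lists only called genes are named.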

Additional observations from a re-analysis of the deposited data

How the results depend on the processing

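Against 4 members called higher and 2 lower, no filter on low values gave 1 and 0, no variance trend 1 and 2, quantile normalization 4 and 1, and the replicate block 1 and 0. The share of all genes called was 6.11% in the main fit. It was 0.968% with no filter, 2.96% with no variance trend, 5.39% with quantile normalization and 1.65% with the replicate block. limma-voom on recovered read pairs gave 5 and 7 (1 of the 7, *Cdkn1b*, passed the filter only through control KD), genes of at least 200 nt 4 and 5, and leaving out 1 library 0 to 1 higher and 0 to 1 lower. Of all genes these called 12.3%, 8.8% and, with 1 library left out, 0.439% to 2.48%. In each of these fits 5 to 7 members were higher and 8 to 12 lower at an unadjusted p under 0.05. Of all calls 68.6% were lower in limma, 58.5% with quantile normalization and 64.1% to 81.3% with 1 library left out. No scaling turned the direction of a called gene. *Ccne2* was called in 5 of 6 leave-one-out fits (0.88 to 1.02), lost without control KD replicate 3 (adjusted p = 0.0557), and *Ccnd1* in 1 of 6 (−1.21 to −0.92). The other 4 were lost in all 6: *Cdc20* (0.45 to 0.57), *Ccna2* (0.34 to 0.45), *Ttk* (0.39 to 0.50) and *Plk4* (−0.67 to −0.56). *Ccnd3*, *Cdk1* and *Fzr1* were called by limma-voom (adjusted p = 0.0114, 0.0195 and 0.0237) and on genes of at least 200 nt (0.0443, 0.0332 and 0.0365). Signs turned only for uncalled genes near 0: *Fbxo5* on genes of at least 200 nt (−0.0179), *Aurka* there (−0.0126) and with quantile normalization (−0.0108), and *Incenp* with median-ratio scaling (0.0072), quantile normalization (0.0239) and limma-voom (0.0067). Leaving out 1 library gave −0.151 to 0.0467 for *Ccnb1*, −0.0011 to 0.0627 for *Ccnf*, −0.397 to 0.0199 for *Cdc25b*, −0.0165 to 0.0501 for *Fbxo5*, −0.0315 to 0.0569 for *Aurka*, −0.0069 to 0.12 for *Bub1*, −0.0629 to 0.056 for *Incenp* and −0.159 to 0.198 for *Pttg1*. The causes of these changes were not tested. Deviations of libraries with the same number had r of −0.004, 0.032 and 0.075, and those of libraries with different numbers −0.071 to 0.041. With 3 libraries in a group, these values cannot decide whether libraries with the same number share a collection.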
